A study of Mus musculus with 16 samples.

Results

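The multi-tRNA synthetase complex of the cytosol was followed through 10 of its subunits, 7 enzymes (Eprs, Iars, Lars, Mars1, Qars, Kars and Rars) and 3 scaffold proteins (Aimp1, Aimp2 and Eef1e1). The members were all probes that carry one of these symbols, which gave 17 of the 25697 probes of the array, and 10 of its 16593 named genes. Quadriceps femoris mRNA was measured on 1 array per mouse in 8 control and 8 ATF4 mKO mice, all male and 22 months of age. ATF4 mKO mice carry both copies of a floxed Atf4 allele and an MCK-Cre transgene, whose Cre acts in heart and in the fibres of skeletal muscle. Control mice were littermates with the same floxed alleles and no Cre. Other cells of the quadriceps keep Atf4 in both groups, and in whole muscle fewer cells of a type and less mRNA per cell cannot be told apart.

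Aminoacyl-tRNA synthetases join each amino acid to its tRNA and so supply the ribosome with its substrates. In animal cells a part of the cytosolic enzymes is held in a single large particle by scaffold proteins that have no synthetase activity, while the other enzymes work free of it. ATF4 is a transcription factor of the amino acid and stress response, and synthetase genes are among its known targets. The comparison asked whether the subunits of this particle changed together when ATF4 was removed from the fibres, and whether enzymes and scaffold proteins differed.

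They did not change together. Iars, Lars and Mars1 fell in ATF4 mKO muscle, and Eprs, Qars, Kars, Rars and all 3 scaffold proteins did not pass the test. By the brightest probe of each gene, 3 of 7 enzymes and 0 of 3 scaffold proteins fell (limma, adjusted p of 0.1 or less), where 0.108% of the 16593 named genes fell and 0.0973% of all probes did. Among the 3997 named genes with a mean signal of 9 or more, 0.3% fell. No subunit rose, as 0.0389% of all probes did, and 0.136% of all probes were called in either direction. None of the 7 subunits that did not pass had an unadjusted p below 0.05 at its brightest probe. The median change was -0.02 over the 7 enzymes, 0.02 over the 3 scaffold proteins and 0.00 over all named genes, on the log2 scale. At an unadjusted p of 0.025 in the methods' t-test the same 3 member genes passed, beside 2.85% of all probes.

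The upstream regions of an enzyme that fell with a motif, an enzyme that fell without it, an enzyme that did not pass and a scaffold protein that did not pass are shown because they set the gene's own sequence beside its response. They run from 250 bases before the annotated start to 30 bases after it, 5′ to 3′ on the gene's strand (RefSeq, GRCm38.p6). Capitals mark a match to TGATGNAA, the core of the element that ATF4 binds with its C/EBP partners, searched on both strands.
Iars: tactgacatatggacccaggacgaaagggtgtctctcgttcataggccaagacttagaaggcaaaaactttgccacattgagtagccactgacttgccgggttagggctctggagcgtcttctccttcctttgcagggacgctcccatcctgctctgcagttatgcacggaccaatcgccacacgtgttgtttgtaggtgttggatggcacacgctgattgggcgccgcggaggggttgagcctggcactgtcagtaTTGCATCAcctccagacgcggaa
Mars1: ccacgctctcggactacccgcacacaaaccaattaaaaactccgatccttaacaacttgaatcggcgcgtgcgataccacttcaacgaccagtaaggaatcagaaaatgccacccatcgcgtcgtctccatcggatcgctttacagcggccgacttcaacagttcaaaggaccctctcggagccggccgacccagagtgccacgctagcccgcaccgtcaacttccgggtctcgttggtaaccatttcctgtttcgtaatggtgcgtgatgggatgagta
Qars: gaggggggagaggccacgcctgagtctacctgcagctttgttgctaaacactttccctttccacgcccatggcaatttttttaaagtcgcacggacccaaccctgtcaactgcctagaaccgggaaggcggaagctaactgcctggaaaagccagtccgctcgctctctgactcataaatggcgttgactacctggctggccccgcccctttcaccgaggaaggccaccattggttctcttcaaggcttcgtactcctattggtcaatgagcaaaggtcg
Eef1e1: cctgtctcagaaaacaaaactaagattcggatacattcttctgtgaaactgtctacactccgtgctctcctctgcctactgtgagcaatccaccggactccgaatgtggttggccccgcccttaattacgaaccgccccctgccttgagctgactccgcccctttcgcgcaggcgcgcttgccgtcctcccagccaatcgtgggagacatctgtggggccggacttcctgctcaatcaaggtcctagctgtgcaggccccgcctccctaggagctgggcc

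The windows are chr13:49681880-49682159 on the plus strand for Iars, chr10:127311757-127312036 on the minus strand for Mars1, chr9:108507755-108508034 on the plus strand for Qars and chr13:38658999-38659278 on the minus strand for Eef1e1. The search ran from 250 bases before to 50 bases after the start. The Iars window held 1 match, which reads TTGCATCA on the plus strand, as printed, and TGATGCAA on the minus strand. It lies 8 bases into the transcript (chr13:49682137-49682144). Of the 8 members with a window, Iars was the 1 with a match, so that 1 of the 2 fallen members with a window and 0 of the 6 others had it. Over all 32851 windows of the table, 3.97% held TGATGNAA, and 0.895% held TGATGCAA, one of its forms. Counted by gene, the shares of 27025 genes were 4.51% and 1.03%. Lars and Rars had no window in the table. Among the genes of free cytosolic enzymes 4 of 7 windows held a match. These were 2 of the 3 windows of genes that fell (Aars and Gars) and 2 of the 4 of genes that did not pass (Tars and Yars). Nars, which also fell, and Cars, Hars, Vars and Wars had no window. The control mean of Yars (8.33) was at the floor and that of Tars (8.59) close to it. A match describes letters in a window and shows no binding.

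The check of the labels came first. Atf4 itself gave log2 signals of 10.26 to 10.57 in control mice (median 10.51) and 8.44 to 8.61 in ATF4 mKO mice (median 8.52). All ATF4 mKO mice lay below all control mice, and limma gave a difference of -1.93 with an S.E. of 0.04 (adjusted p = 1.26e-13). Correlations of pairs of arrays lay between 0.994 and 0.998, each array had a median of 8.38, and 65.7% of probes lay below 8.5, close to a floor shared by all arrays. All 7 skeletal muscle fibre markers lay far above this floor, from 12.86 for Myh1 to 15.31 for Mylpf as means over all arrays, and their average per mouse was 14.6 to 14.8 in control and 14.6 to 14.7 in ATF4 mKO mice. Markers of other cell types were followed as well, and no marker passed (limma, adjusted p of 0.841 or more). The erythroid markers, 2 of 3 of which were measured, had an average per mouse of 10.70 to 11.86 in control and 10.37 to 11.22 in ATF4 mKO mice, and their part in any result was not tested. Satellite cell and T cell markers lay at the floor in both groups.

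Iars, which charges tRNA with isoleucine, gave the smallest adjusted p of the complex. Its brightest probe, ILMN_2810045, read 10.65 at the lowest, 10.76 at the median and 10.93 at the highest in control mice, against 10.13, 10.19 and 10.23 in ATF4 mKO mice. Every ATF4 mKO mouse lay below every control mouse, a separation downward that 0.0856% of all probes showed. The mean was 10.79 in control (SD 0.09) and 10.19 in ATF4 mKO mice (SD 0.03), with -0.60 ± 0.03 as the change and its S.E. (limma, adjusted p = 2.45e-08).

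A second Iars probe, ILMN_2810047, separated the genotypes as well, with 9.71 to 9.97 in control and 9.25 to 9.44 in ATF4 mKO mice and a change of -0.48 ± 0.04 (limma, adjusted p = 4.60e-06). The other Iars probes lay at the floor. ILMN_1224044 read 8.33 to 8.35 in control and 8.31 to 8.33 in ATF4 mKO mice, a change of -0.02 that did not pass (limma, adjusted p = 0.662), and ILMN_1227208 read 8.33 to 8.36 and 8.32 to 8.38. A signal at the floor can show little of a fall, whatever the mRNA does.

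Mars1, the methionine enzyme, which also charges the initiator tRNA that starts every protein, gave the largest change of the complex on the deposited scale. Its brightest probe, ILMN_2534090, ran from 10.02 through a median of 10.20 to 10.34 in control mice and from 9.42 through 9.48 to 9.66 in ATF4 mKO mice. The groups did not overlap. The mean was 10.18 in control (SD 0.12) and 9.51 in ATF4 mKO mice (SD 0.09), with -0.67 ± 0.05 as the change and its S.E. (limma, adjusted p = 1.56e-06).

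The second Mars1 probe, ILMN_2828687, was closer to the floor, at 8.63 to 8.83 in control and 8.55 to 8.65 in ATF4 mKO mice. There 1 control mouse reached into the range of the ATF4 mKO mice, and the probe fell by 0.18 ± 0.03 (S.E.; limma, adjusted p = 0.00558). Both probes of Mars1 thus passed, at different distances from the floor.

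Lars, the leucine enzyme, which has been described in human and yeast cells as a sensor of leucine for the growth kinase mTORC1, had 1 probe, ILMN_2899591. Its signals ran from 9.60 through a median of 9.67 to 9.75 in control mice and from 9.30 through 9.40 to 9.55 in ATF4 mKO mice. The groups did not overlap here either. The mean was 9.68 in control (SD 0.04) and 9.41 in ATF4 mKO mice (SD 0.08), with -0.27 ± 0.03 as the change and its S.E. (limma, adjusted p = 2.31e-04).

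**Figure D1:**
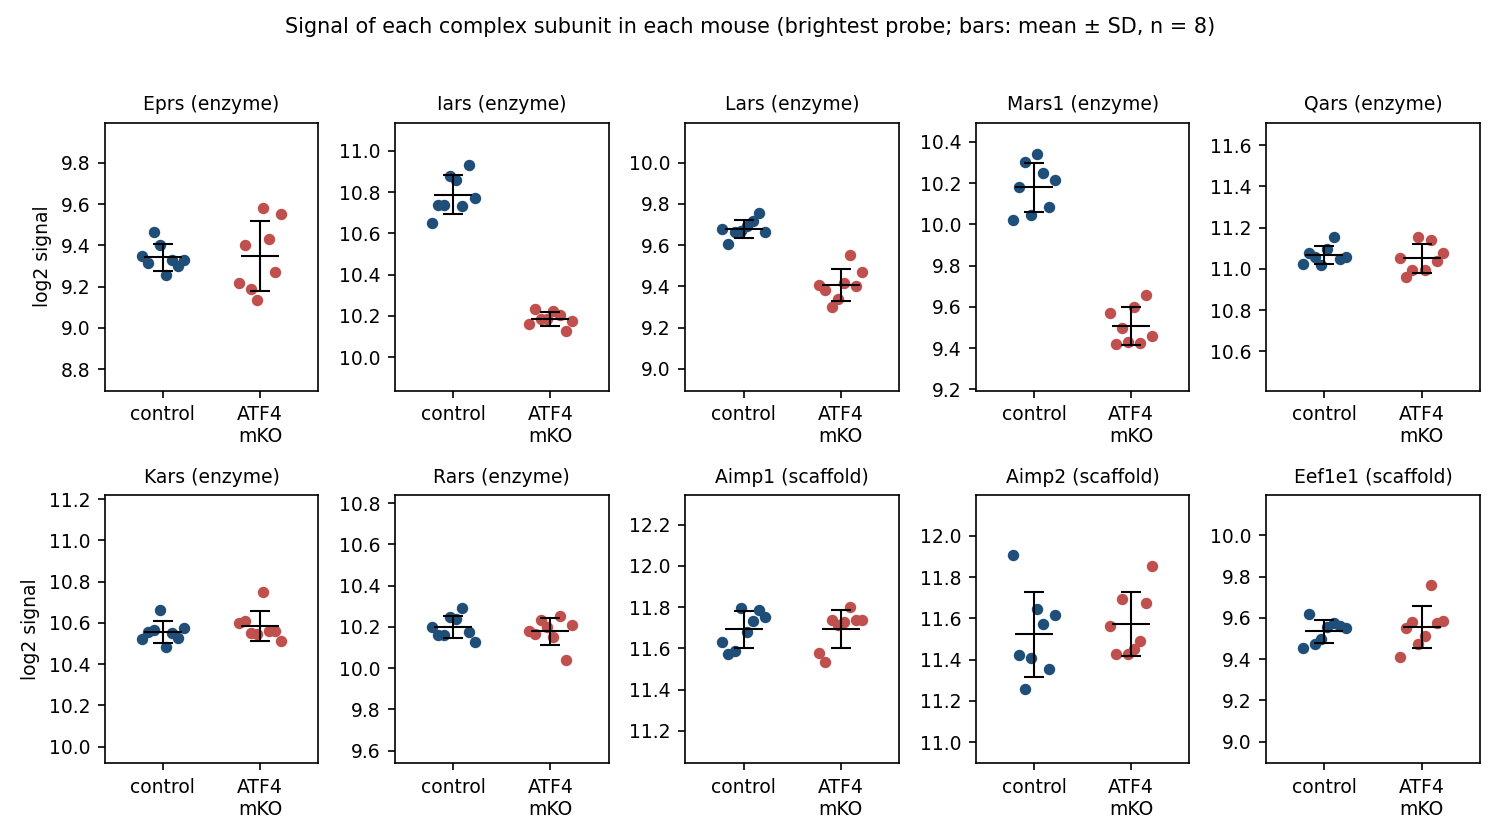
Log2 signal (vertical axis, each panel spanning the same range of log2 units) of the brightest probe of each subunit in each of 8 control and 8 ATF4 mKO mice. Points are mice, and bars are the mean and SD. The groups separate for Iars, Lars and Mars1 and overlap for the 4 other enzymes and the 3 scaffold proteins.

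The other 4 enzymes did not pass. Eprs, a joined enzyme that charges tRNAs with glutamate and with proline, ran from 9.25 through a median of 9.33 to 9.47 in control mice and from 9.14 through 9.34 to 9.58 in ATF4 mKO mice. The change was 0.01 ± 0.06 (S.E.; 95% interval -0.12 to 0.13; limma, adjusted p = 0.999), and a second probe gave 0.03 (-0.07 to 0.12). The SD of Eprs was 0.07 among control mice and 0.17 among ATF4 mKO mice, and this difference in spread was not tested, with ATF4 mKO mice 5 and 8 at the top (9.58 and 9.55).

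Qars, the glutamine enzyme, held a narrow range in both groups. Its signals were 11.02 to 11.15 in control mice (median 11.06) and 10.96 to 11.16 in ATF4 mKO mice (median 11.05), a change of -0.01 ± 0.03 (95% interval -0.07 to 0.05).

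Kars encodes the lysine enzyme of the cytosol and, through another splice form, that of the mitochondrion. Its signals were 10.48 to 10.66 in control mice (median 10.55) and 10.51 to 10.75 in ATF4 mKO mice (median 10.56), with a change of 0.03 ± 0.03 (-0.03 to 0.09). Rars, the arginine enzyme, read 10.13 to 10.29 in control (median 10.19) and 10.04 to 10.25 in ATF4 mKO mice (median 10.19), with a change of -0.02 ± 0.03 (-0.08 to 0.04), and its second probe gave -0.01. For all 4 genes the groups overlapped, and the lower bounds of these intervals, at -0.12 or above, lay nearer to 0 than the change of Lars.

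The scaffold proteins gave changes near 0 as well. Aimp1, which is bound to the arginine and glutamine enzymes and is also known as the precursor of a secreted cytokine, ran from 11.57 through 11.71 to 11.80 in control and from 11.53 through 11.73 to 11.80 in ATF4 mKO mice. The groups covered nearly the same range, and the change was 0.00 ± 0.04 (S.E.; 95% interval -0.09 to 0.09). Eef1e1, a small subunit that binds the methionine enzyme, ran from 9.46 through 9.55 to 9.62 in control and from 9.41 through 9.56 to 9.76 in ATF4 mKO mice, with a change of 0.02 ± 0.04 (-0.06 to 0.10).

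Aimp2, the core scaffold on which the lysine enzyme docks, had the widest spread of the subunits among control mice, with an SD of 0.20 at its brightest probe, and an SD of 0.16 among ATF4 mKO mice, where Eprs spread slightly more. Its brightest probe, ILMN_2943217, ran from 11.26 through 11.50 to 11.91 in control and from 11.43 through 11.53 to 11.86 in ATF4 mKO mice, with a change of 0.05 ± 0.09 (95% interval -0.13 to 0.23). The second probe, ILMN_1244330, gave the other sign, -0.05 ± 0.07 (-0.20 to 0.10), so that no direction can be given for Aimp2. When control mice 3 and 7 were left out, since an earlier analysis set them apart by principal components, the first probe gave -0.02 and the second -0.10, and neither passed.

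The floor matters for the size of these changes. On deposited signals, the means of ATF4 mKO mice came to 65.9% of control for Iars, 62.7% for Mars1 and 82.9% for Lars. With the floor of each array subtracted, they came to 59.0% (95% interval 53.8 to 64.6) for Iars, 49.7% (44.0 to 56.1) for Mars1 and 72.8% (65.9 to 80.5) for Lars. The same 3 genes passed on this scale (limma, adjusted p = 4.91e-07, 4.91e-07 and 0.00313), where 0.0895% of all probes fell.

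The probes of a gene responded to the subtraction in different ways. The brighter Iars probes gave -0.76 and -0.79 on the floor-subtracted log2 scale, against -0.60 and -0.48 before, while those at the floor, ILMN_1224044 and ILMN_1227208, gave -0.30 and -0.03 and did not pass (limma, adjusted p = 0.474 and 0.998). The Mars1 probes gave -1.01 and -0.65, against -0.67 and -0.18. When every probe of each gene was averaged in place of taking the brightest, with no subtraction, Iars gave -0.28 and Mars1 -0.42, and both still passed (limma, adjusted p = 3.08e-07 and 1.80e-06). For the subunits that did not pass, floor-subtracted changes of the brightest probes lay between -0.03 and 0.06, with intervals that reached from -0.24 for Eprs to 0.26 for Aimp2.

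**Figure D2:**
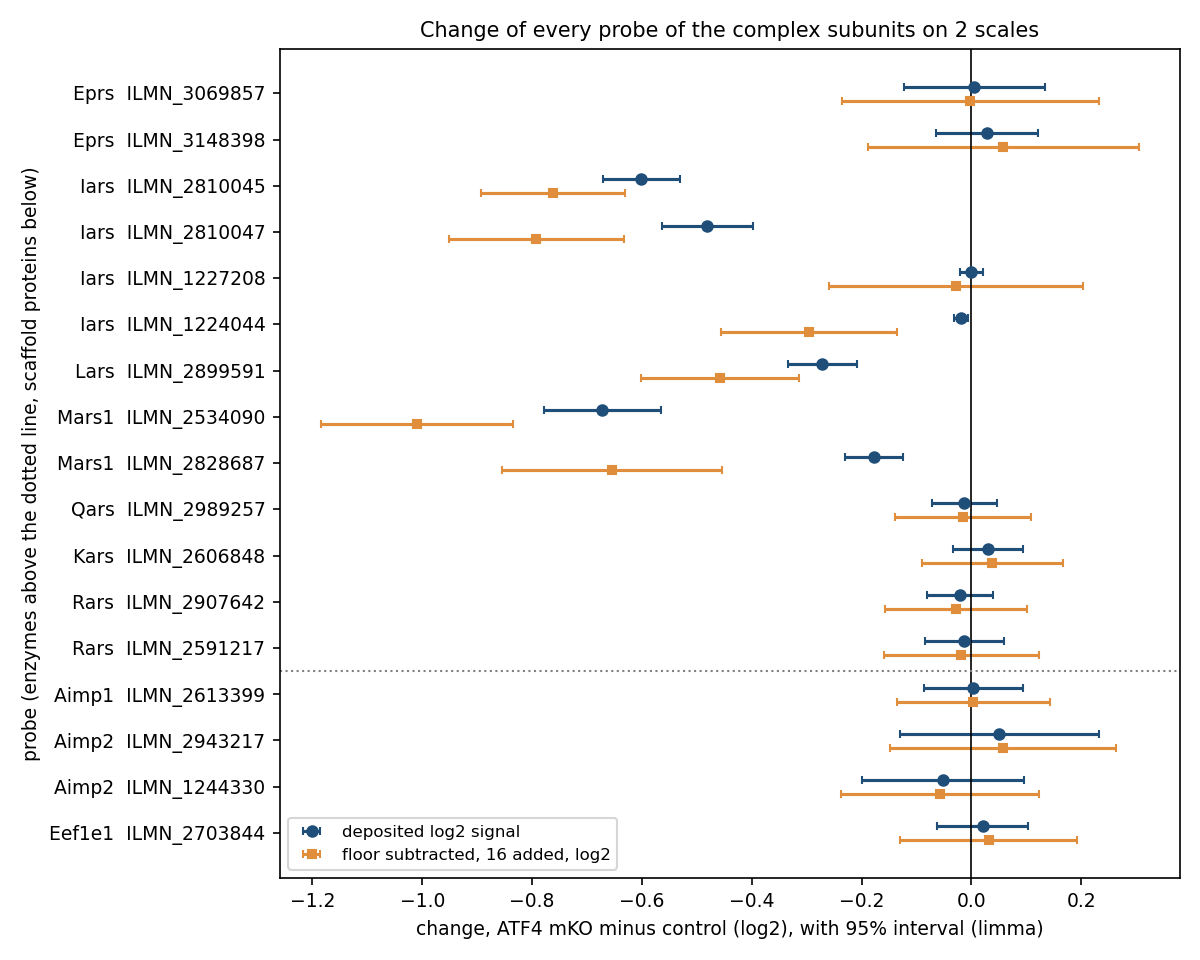
Change of each of the 17 probes (horizontal axis, ATF4 mKO minus control, log2) with its 95% interval from limma, as deposited (circles) and with the floor of the array subtracted (squares). The Mars1, Iars and Lars probes away from the floor lie left of 0 on both scales, and the intervals of the brightest probes of the other subunits include 0.

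Whether enzymes and scaffold proteins differed was tested on the difference between their signals in each mouse, which gives the change of one less the change of the other. Of 21 such differences, 9 passed (two-sided exact permutation test over 12870 arrangements of the mice, adjusted p of 0.05 or less over the 21), and all 9 were those of Iars, Lars and Mars1. The differences share genes and mice, so these 9 are not separate results. The 12 differences of Eprs, Qars, Kars and Rars did not pass. They ran from -0.07 to 0.03, with adjusted p from 0.786 to 0.978 in the exact test.

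Against Aimp1, Mars1 changed by -0.68, Iars by -0.60 and Lars by -0.27 (exact permutation p = 0.000155 for each, the smallest these arrangements can give, adjusted p = 0.000653). Against Eef1e1, the neighbour of the methionine enzyme in the particle, the differences were -0.69 for Mars1 and -0.62 for Iars (adjusted p = 0.000653, exact test) and -0.29 for Lars (adjusted p = 0.000932, exact test). Against Aimp2, with its wider spread, they were -0.72 for Mars1, -0.65 for Iars and -0.32 for Lars (adjusted p = 0.000932, 0.00163 and 0.0123, exact test). In each of the 9, the value of 8 of 8 ATF4 mKO mice was below the mean of control mice. The ranges of the genotypes still overlapped in every difference against Aimp2 and in that of Lars from Eef1e1.

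**Figure D3:**
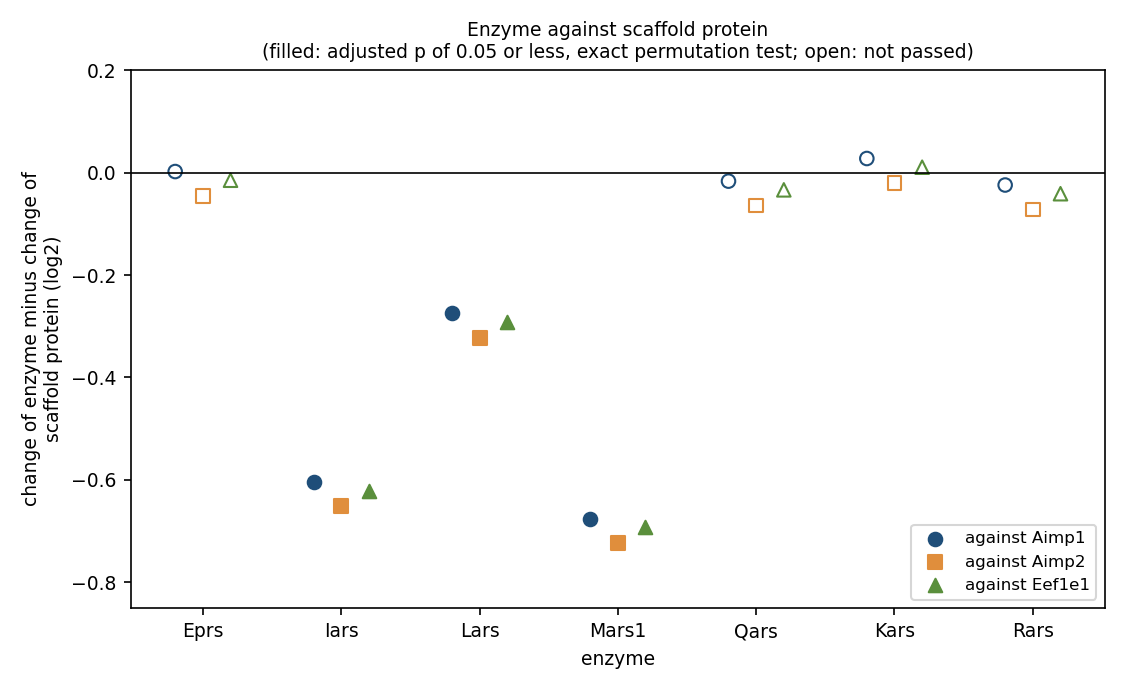
Change of each of 7 enzymes less the change of each of 3 scaffold proteins (vertical axis, log2). Filled points passed the exact permutation test at an adjusted p of 0.05, and open points did not; Iars, Lars and Mars1 lie between -0.72 and -0.27 and the other enzymes between -0.07 and 0.03.

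The 3 enzymes that fell were also compared with each other, by tests chosen after their values were seen. On deposited signals Mars1 and Iars both fell by more than Lars, with differences of -0.40 and -0.33 (exact permutation p = 0.000155 each, adjusted p = 0.000233 over the 3). Mars1 and Iars differed by -0.07 (exact p = 0.300), less than the spread between mice. With the floor subtracted this last difference was -0.25 (exact p = 0.0252 over the 12870 arrangements, adjusted p = 0.0252), so that whether Mars1 fell by more than Iars depended on the treatment of the floor.

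Subunits could also vary together from mouse to mouse apart from genotype. Over the 45 pairs of subunits, Pearson's r had a median of -0.03 in the 8 control mice, from -0.66 to 0.67, and of 0.10 in the 8 ATF4 mKO mice, from -0.76 to 0.63. Positive values were found in 21 of 45 pairs in control and 27 of 45 in ATF4 mKO mice. For all pairs of 3997 genes with a mean signal of 9 or more, the middle value was near 0 in both genotypes and the 5th and 95th percentiles were -0.66 and 0.66. These pairs share arrays and are a description only.

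Of the 90 relations, 0 passed an adjusted p of 0.05 with Pearson's r or with Spearman's rho (exact permutation over 40320 pairings), and 1 had an unadjusted p below 0.05. This was Mars1 with Rars in ATF4 mKO mice, with r = -0.76 (exact p = 0.0313, adjusted p = 0.973) and rho = -0.55 (exact p = 0.171, adjusted p = 0.905). Without the 2 mice farthest from the median of Mars1, r was -0.18, so the relation rested on those mice. Among Iars, Lars and Mars1, the enzymes that fell with the genotype, r lay between -0.09 and 0.47 in control mice and between -0.56 and 0.06 in ATF4 mKO mice.

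**Figure D4:**
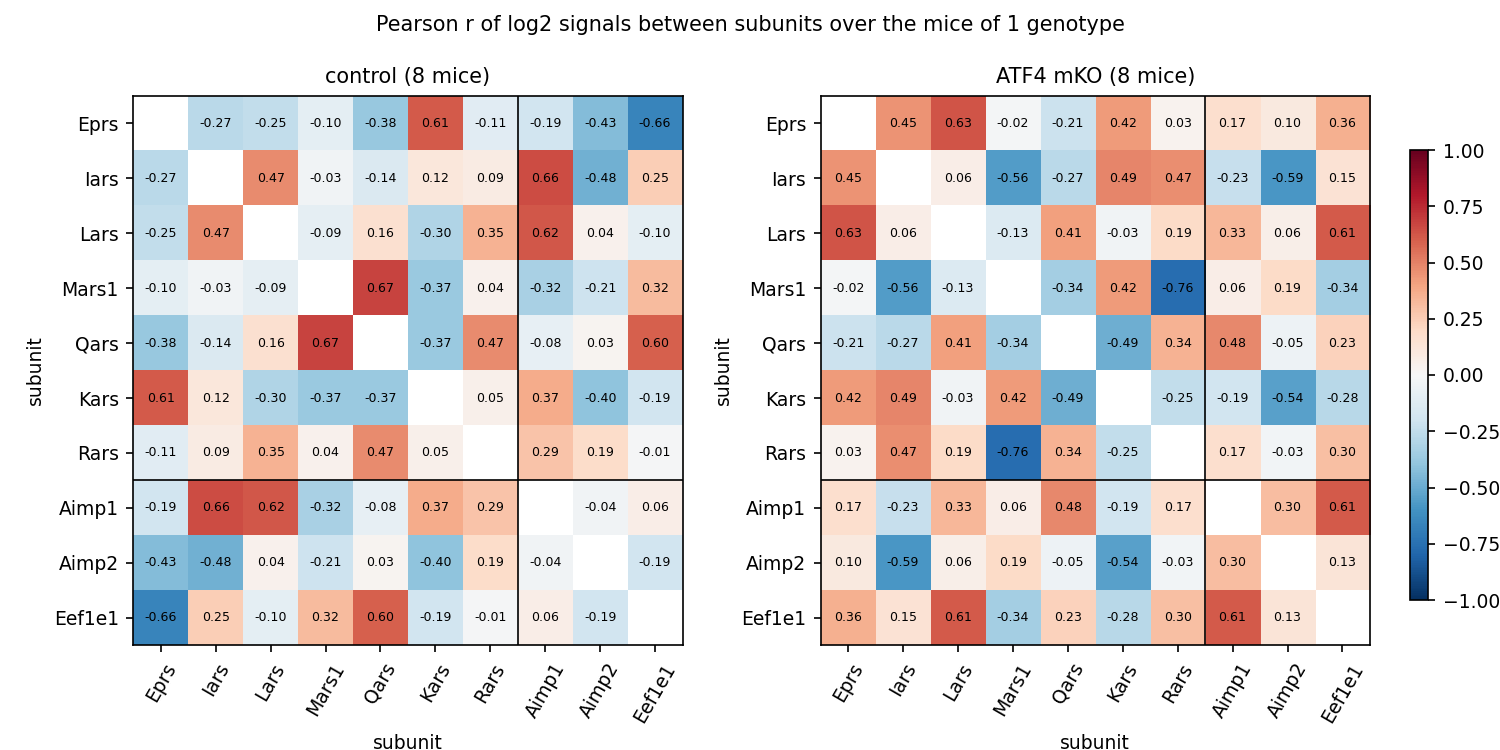
Pearson r of log2 signals (colour and number) for each pair of subunits over 8 control mice (left) and 8 ATF4 mKO mice (right), with black lines between enzymes and scaffold proteins. Values run from -0.66 to 0.67 in control and from -0.76 to 0.63 in ATF4 mKO mice. Both signs occur among the enzymes in either genotype. The 3 pairs of scaffold proteins run from -0.19 to 0.06 in control and from 0.13 to 0.61 in ATF4 mKO mice. None of these pairs passed.

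The precision of such relations can be read from probes of the same gene, which were compared after the values were seen. For the 5 subunits with a second probe above the floor, r between the probes ran from -0.39 to 0.92 over 10 relations, and 1 passed. This was Aimp2 in control mice, with r = 0.92 (exact permutation p = 0.00243, adjusted p = 0.0243) and rho = 0.88 (exact p = 0.00724, adjusted p = 0.0724), and r = 0.72 without the 2 mice farthest from the median. Between the Rars probes, r was -0.39 over control mice and -0.10 over ATF4 mKO mice. The brighter Iars probes gave r = 0.82 in control mice and did not pass (exact permutation, adjusted p = 0.0982), so that in 8 mice even a close relation could miss the threshold.

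The genes around the complex set the fall of its enzymes in context. Of 12 genes for enzymes that act free of the complex, 4 fell (limma, adjusted p from 1.49e-11 to 8.27e-06). They were Aars (alanine, -0.93), Gars (glycine, -0.42), Nars (asparagine, -0.40) and Sars (serine, -0.35). Of the 8 others, Cars, Wars and Farsb had the smallest p and gave -0.04, -0.07 and -0.05, and 4 of the 12, Cars among them (8.37), lay at the floor in control mice. With the floor subtracted, Aars gave -1.11, Sars -0.65, Nars -0.55 and Gars -0.44, and Cars gave -0.48 with a wide interval (-0.81 to -0.16) and did not pass (limma, adjusted p = 0.768). Enzyme genes that fell were thus found both inside and outside the particle, 3 of 7 genes and 4 of 12. No difference between these shares was tested.

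The mitochondrion charges its tRNAs with enzymes of its own for most of the same amino acids. Of 6 such genes measured, 0 passed (limma), and their changes ran from -0.01 to 0.05, with Iars2 at 0.05, Mars2 at 0.02 and Pars2 at -0.01. In tests chosen after the values were seen, Iars fell by 0.65 more than Iars2, Lars by 0.26 more than Lars2 and Mars1 by 0.69 more than Mars2 (exact permutation, adjusted p = 0.000311 each over 6). Mars2, at 8.65 in control mice, was close to the floor. Pars2, at 8.46, was closer still, so its change and its difference from Eprs can show little. The differences of Rars from Rars2 and of Eprs from Ears2 and Pars2 did not pass (-0.04, -0.02 and 0.02).

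Charged tRNAs are carried to the ribosome by elongation factor 1, and 0 of its 5 subunit genes passed (limma), with changes from 0.00 to 0.05. Eef1a2, the muscle form of its tRNA carrier, gave 0.05 (limma, adjusted p = 0.927), Eef1g gave 0.04 and Eef1b2 gave 0.05. Of 7 measured genes of tRNA processing and modification, 0 passed (limma), with changes from -0.01 to 0.07. Rtcb, the ligase of tRNA splicing, gave 0.07 (limma, adjusted p = 0.888), Trmt1 gave 0.03 and Nsun2 gave 0.01. In control mice Eef1a1 (8.32), Nsun2 (8.37) and Alkbh8 (8.40) lay at the floor, where a change can hardly show. At an unadjusted p below 0.05 these 2 lists and the mitochondrial enzymes also counted 0 genes by their brightest probes.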

How the data were processed

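RNA was hybridized by the authors to Illumina Mouse Ref-8 version 2.0 BeadChips and extracted in BeadStudio. The authors deposited 1 log2 signal per probe and array, and these were used as they stand. Background correction, normalization and slides are not stated in the sources at hand. Every array had a floor near 8.3, which understates changes of dim probes. Genotype and mouse number came from the sample labels. Each probe was fitted as ATF4 mKO minus control over 16 arrays with limma 3.58.1 (R 4.3.3), two-sided, with p adjusted by Benjamini and Hochberg over 25697 probes, and an adjusted p of at most 0.1 was the threshold for a call. A gene was read at the probe with the highest mean. S.E. and 95% intervals are those of limma.

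Differences and relations between genes were tested per mouse with two-sided exact permutation tests (Python 3.11.15, SciPy 1.17.1). For differences, arrangements were counted by the absolute size of the difference. For relations, the smaller tail was doubled, and counting pairings by the size of r was also run, after the values were seen. For floor subtraction, the 5th percentile of each array's linear signals was subtracted and 16 added before log2. Both the fit and the exact tests were tested on simulated or known data. The number of arrays limits the precision.

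The members and lists were chosen with earlier results of these data known. The text names all probes of the members, Atf4, and of each comparison list the genes that passed and up to 3 others with the smallest p. For each member that passed it names the 3 genes whose deviations from the group means were most like its own, among probes with a mean of 9 or more. Dars, a further enzyme of the complex, had no probe by symbol, alias or gene identifier, nor had the tRNA export gene Xpot. Promoter windows were taken from RefSeq.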

Additional observations from a re-analysis of the deposited data

Results flagged for a closer look

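In 2 of 34 sets of 8 mice, 1 mouse lay far from the others by Dixon's ratio, where chance sets apart about 1 in 20. The second Mars1 probe (ILMN_2828687) read 8.63 in control mouse 1, next to 8.75 in the nearest control mouse. Without this mouse the change of that probe was -0.20 (limma, adjusted p = 8.80e-06). Kars read 10.75 in ATF4 mKO mouse 5, next to 10.61 in the nearest mouse, and without it the change of Kars was 0.01 and did not pass (limma, adjusted p = 0.999).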

How the results depend on the processing

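The 3 member genes called, Iars, Lars and Mars1, were called in every alternative run, and 9 of the 21 differences between enzymes and scaffold proteins passed in each of theirs; with single mice left out these counts were 3 to 3 and 9 to 9. Relations between subunits stayed at 0 of 90. Over all alternatives that kept the brightest probe, floor subtraction apart, the change lay between -0.62 and -0.58 for Iars, -0.70 and -0.65 for Mars1 and -0.29 and -0.26 for Lars. Averaging every probe of each gene, dim ones included, gave -0.28 for Iars and -0.42 for Mars1. Of all probes, 35 were called, 28 to 37 with single mice left out and 25 without control mice 3 and 7. Floor subtraction gave 23, where the cause was not tested, and the methods' t-test at its unadjusted p gave 733, a threshold with no adjustment. The 1 dim Iars probe ILMN_1224044 passed that t-test alone.

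With mouse number as a replicate block, 16 probes were called and the same 3 members kept their call (adjusted p of 1.72e-04 for Iars, 0.00382 for Lars and 0.00120 for Mars1). The numbers gave no sign of pairing the mice, since mice of the same number correlated between -0.23 and 0.24 in their deviations, 2 of 8 pairs above 0.1, and 1 of 8 control mice correlated best with its own number. The planned block for slides was not run because no slide is named. The deposited floor limits what dim probes can show, and the number of mice limits the relations between subunits.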

Other observations

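Within the control mice, which all keep Atf4, the members were set beside Atf4 itself, a comparison chosen after the values were seen. Mars1 gave the largest r of the 10 members, 0.88 (exact permutation p = 0.0109, adjusted p = 0.109 over the 10), with rho = 0.71 (exact p = 0.0576, adjusted p = 0.393), and it did not pass. Without the 2 mice farthest from the median of Atf4, r was 0.73 (exact p = 0.150, n = 6). Iars and Lars, which also fell in ATF4 mKO mice, gave r = -0.23 and -0.31 in the same control mice (exact p = 0.574 and 0.447).

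The genes whose deviations from the group means were most like those of each fallen enzyme over the 16 arrays, among 3987 candidates, were Elob (r = 0.86), Plaa (0.76) and Zc3h14 (0.74) for Iars, Fcf1 (0.81), Ube2a (0.76) and Lman1 (0.76) for Lars, and Dhrs1 (0.83), Rps27 (0.80) and Crcp (0.73) for Mars1. None of these 9 genes passed the test between genotypes, and no gene was shared between the 3 lists. These are the highest of many values and are a description of these arrays.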
